A study of Mus musculus with 2 samples.

Results

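The genes of major histocompatibility complex (MHC) class I and class II antigen presentation were followed in RNA of muscle stem cells, which express Pax7 and rebuild injured skeletal muscle. The set holds 10 genes of the 24532 gene IDs in the deposited count table, found by their Entrez IDs, with the transcript rows of a gene summed. Of these, 5 belong to class I (H2-K1, H2-D1, B2m, Tap1 and Tapbp) and 5 to class II (H2-Aa, H2-Ab1, H2-Eb1, Cd74 and Ciita). A double-knockout (dKO) library was set against a wild-type (WT) library, each from male C57BL/6 mice. The dKO animals carried Pax7-CreER (Cre that tamoxifen activates, driven by Pax7), were labelled Esr2-/- (Esr2 encodes estrogen receptor beta), and had a further gene open to deletion by Cre, which is not reported here. The protocol given for both samples has oral tamoxifen (20 mg/mL) for 5 days at 3 months of age, and both titles carry the mark 6M. Cells came straight from digested limb muscle and were sorted as Vcam1-positive and as negative for CD31, CD45 and Sca1. The sources used here do not say how many animals went into a library.

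Class I molecules sit on nearly all nucleated cells and show peptides of the cell's own proteins to CD8 T cells. Peptides cut by the proteasome are pumped into the endoplasmic reticulum by the TAP transporter and loaded, with the help of tapasin, onto a heavy chain paired with beta-2 microglobulin. Class II molecules show peptides of ingested proteins to CD4 T cells and are made mainly by dendritic cells, macrophages and B cells. Their alpha and beta chains assemble on the invariant chain Cd74, under the transcriptional coactivator Ciita. Its relative Nlrc5 plays the same part for class I genes.

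Both pathways are known to be switched on through a promoter module of S, X and Y boxes. To show what class I and class II promoters have in common here, the letters TGACG (a core of the X box) followed by ATTGG (the Y box, CCAAT on the other strand) were searched with 18 to 22 bases between them, a spacing chosen after the members' promoters were seen. RefSeq promoters on GRCm38.p6, from 250 bases before to 50 bases after a gene's start, were found for 7 of the 10 genes. The pattern was present in H2-K1, H2-D1, B2m and H2-Aa, and in 0.268% of all 32851 promoter windows on either strand. The stretches that hold it are printed 5′ to 3′ on the strand of the gene, with TGACG and ATTGG in capitals.
H2-K1, chr17:34000354-34000408, minus strand: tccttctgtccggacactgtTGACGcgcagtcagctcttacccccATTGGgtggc
H2-D1, chr17:35262973-35263027, plus strand: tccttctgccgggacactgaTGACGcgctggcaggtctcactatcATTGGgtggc
B2m, chr2:122147589-122147643, plus strand: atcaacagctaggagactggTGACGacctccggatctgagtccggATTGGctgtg
H2-Aa, chr17:34287862-34287917, minus strand: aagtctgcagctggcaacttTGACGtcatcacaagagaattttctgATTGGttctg

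The spacing was 20 bases in H2-K1, H2-D1 and B2m, and 21 bases in H2-Aa. So the class I trio and a class II chain shared the pattern. Whether it bears on their RNA levels, given below, was not tested. The windows of Tap1, Tapbp and H2-Eb1 did not hold these letters at this spacing. Other spellings of the X box were not searched, so these windows are not shown to lack the module.

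Whole windows of 300 bases are shown for B2m and H2-Eb1, to set a class I promoter beside a class II promoter. Capitals mark, on either strand, all matches to the X box letters TGACG and to the Y box letters CCAAT. They also mark an interferon pattern (TTTC, 2 free bases and TTTC again) and a gamma activated pattern, spelled TTCNNNGAA.
B2m, chr2:122147437-122147736, plus strand: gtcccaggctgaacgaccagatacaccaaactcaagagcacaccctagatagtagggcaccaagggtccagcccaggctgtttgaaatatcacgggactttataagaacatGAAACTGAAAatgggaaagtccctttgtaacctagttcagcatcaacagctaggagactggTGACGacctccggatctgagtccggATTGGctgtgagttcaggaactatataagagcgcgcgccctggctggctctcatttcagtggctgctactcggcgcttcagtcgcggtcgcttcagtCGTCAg
H2-Eb1, chr17:34305617-34305916, plus strand: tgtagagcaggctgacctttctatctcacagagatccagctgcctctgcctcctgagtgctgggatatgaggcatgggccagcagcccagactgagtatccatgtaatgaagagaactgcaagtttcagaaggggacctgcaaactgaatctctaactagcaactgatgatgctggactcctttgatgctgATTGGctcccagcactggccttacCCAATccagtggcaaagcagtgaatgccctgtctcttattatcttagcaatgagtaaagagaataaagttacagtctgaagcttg

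The interferon pattern stood in the B2m window, as GAAACTGAAA on the strand shown, and in 3.44% of all windows. In this exact spelling it was in none of the windows of H2-K1, H2-D1, Tap1, Tapbp, H2-Aa and H2-Eb1. Looser spellings of it were not searched, so these windows are not shown to lack an interferon site. The window of H2-Eb1 held CCAAT at 2 places. CCAAT alone stood in 37.4% of windows, TGACG in 20.8% and TTCNNNGAA in 8.30%, so these short patterns are common. A match is a run of letters and not a measured binding site.

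The dKO library held 43699831 counts and the WT library 36636680. With 1 library per group there was no replicate and no test: intervals below are 95% intervals for counting error only, and each statement compares these libraries. Levels are CPM, the usual unit of counts relative to library size, here after TMM scaling. Log2 ratios are of dKO CPM + 1 over WT CPM + 1, and folds have no pseudocount. A gene counted as measured where its higher library reached 10 counts (14885 genes, median log2 ratio −0.02), and it was called 2-fold apart where the size of its log2 ratio reached 1. Esr2 had 45 counts in dKO and 71 in WT, and the labels do not say which part of the gene is deleted, so these counts check nothing about the label. All 15 muscle stem cell markers had counts in both libraries, of which 8 were above and 7 below 0. Their median was 0.03 (−0.23 by library totals, −0.38 with a trend on abundance and length removed). Their summed levels were 15351 CPM in dKO and 12108 CPM in WT, of which Sdc4 made up 4872 and 2980 CPM. Pax7 had 12620 counts in dKO and 22335 in WT, and Myod1, the marker past 2-fold, had 16886 and 5396, 3.13-fold higher (3.03 to 3.23).

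Class I and class II genes stood on opposite sides. All 5 class I genes were above 0 and their median log2 ratio was 0.59, against −0.02 over all measured genes. With a trend on abundance and length removed the class I median was 0.025, and Tapbp came to −0.08. The 4 measured class II genes were below 0, as was Ciita, which was under the count minimum, and the median of the 5 was −1.86. Of the class I genes 1, Tap1, was 2-fold higher in dKO, against 286 of all measured genes (1.92%). Of the class II genes 4 were 2-fold lower, against 640 of all measured genes (4.30%). Under library totals alone the whole comparison shifted by −0.22 in the median of all genes, and 130 genes were higher and 1040 lower. The median of class I was 0.33 under that scaling. With TMM scaling the class II median was also −1.86 when Ciita, with 0 counts in dKO, was set at its bound. That could not have moved it, as the bound, a log2 ratio of −1.42, still lies above those of the other 4 genes.

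**Figure D1:**
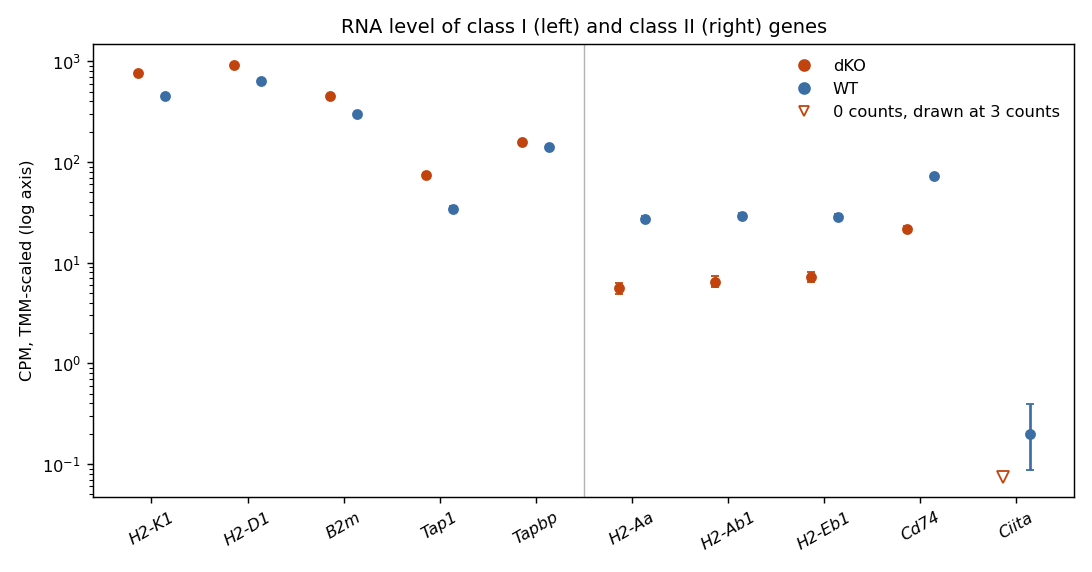
RNA level in CPM (log axis) of the 10 genes in the dKO library and the WT library, with points for 1 library each and bars for 95% Poisson intervals, most of them smaller than the points. The class I genes run from 73.8 to 921 CPM in dKO and from 34.5 to 638 CPM in WT, and H2-Aa, H2-Ab1, H2-Eb1 and Cd74 lie lower in dKO. Ciita had 0 counts in dKO and is drawn at the level of 3 counts.

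H2-K1 and H2-D1 encode the classical class I heavy chains of the C57BL/6 strain, the chains that hold the peptide. H2-K1 (Entrez 14972, chromosome 17, 33996012 to 34000619 on GRCm38) had 30676 counts in dKO and 18342 in WT, or 767 and 458 CPM, 1.67-fold higher in dKO (1.64 to 1.70). H2-D1 (Entrez 14964, chromosome 17, 35263094 to 35267497) had 36873 counts in dKO and 25510 in WT, or 921 and 638 CPM, 1.44-fold higher in dKO (1.42 to 1.47). The dKO library was the higher one for both chains, and neither passed the 2-fold line. Their sequences are alike in places: of the 50-base windows of the transcripts, 8.79% in H2-K1 and 14.3% in H2-D1 also occurred in another gene, among them H2-Q1, H2-Q6 and H2-T23, and 109 windows were common to the pair. At 100 bases the shares were 0% and 4.64%. The 50-base windows occurred in 25 other genes for H2-K1 and in 168 for H2-D1. The H2-D1 transcript searched had 2102 bases, against 1736 in its counted row. How reads with several matches were treated is not stated, and reads from these stretches may have been divided between genes.

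B2m encodes beta-2 microglobulin, the light chain that every class I heavy chain needs (Entrez 12010, chromosome 2, 122147687 to 122153082). It had 18287 counts in dKO and 12147 in WT, or 457 and 304 CPM, 1.5-fold higher in dKO (1.47 to 1.54). None of its 50-base windows occurred in another gene, so the shared stretches of the heavy chains have no counterpart here. Per length, H2-K1 and H2-D1 together stood at 1.87 times the level of B2m in dKO and 1.83 times in WT. The summed heavy chain RNA thus kept close to the same proportion to light chain RNA in the 2 libraries. Taken singly, H2-K1 stood at 0.875 of B2m in dKO and 0.787 in WT, and H2-D1 at 0.997 and 1.04.

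Tap1 encodes a subunit of the peptide transporter (Entrez 21354, chromosome 17, 34187556 to 34197225). It had 2954 counts in dKO and 1382 in WT, or 73.8 and 34.5 CPM, 2.14-fold higher in dKO (2.0 to 2.28), with a log2 ratio of 1.07. This was the class I gene furthest from equal level, and it lay close to the 2-fold line: the log2 ratio was 0.83 under library totals, 0.99 with a pseudocount of 5 CPM, 0.97 on a TPM scale and 0.99 with a trend on abundance and length removed. Its partner subunit Tap2 had 3976 counts in dKO and 4016 in WT, a ratio of 0.990 (0.947 to 1.03). Psmb9, which lies head to head with Tap1 and overlaps 212 bases of its transcript (7.18%) on the other strand, had 230 and 201 counts.

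Tapbp encodes tapasin, which bridges the transporter and the empty heavy chain (Entrez 21356, chromosome 17, 33919478 to 33929290). It had 6373 counts in dKO and 5665 in WT, or 159 and 142 CPM, with a ratio of 1.12 (1.08 to 1.17). It stood nearest to equal level among the class I genes, and its direction was not kept: the log2 ratio of 0.17 was −0.08 by library totals, −0.15 by its most counted row and −0.08 once the trend was removed. An antisense gene, Gm19412, overlaps 682 bases of the Tapbp transcript (23.5%). No row of the deposited counts was matched to its name, and without a known strand setting its reads cannot be told apart from those of Tapbp.

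Abundant genes as a group also lay above 0. H2-K1, H2-D1, B2m and Tapbp were in the highest eighth of measured genes by mean CPM, whose median log2 ratio was 0.29, against −0.16 in the lowest eighth. With a cubic trend on abundance and transcript length removed, the log2 ratios were 0.23 for H2-K1, 0.01 for H2-D1, 0.02 for B2m and −0.08 for Tapbp, while Tap1 stayed at 0.99. The part of this trend in the class I values was not tested.

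**Figure D2:**
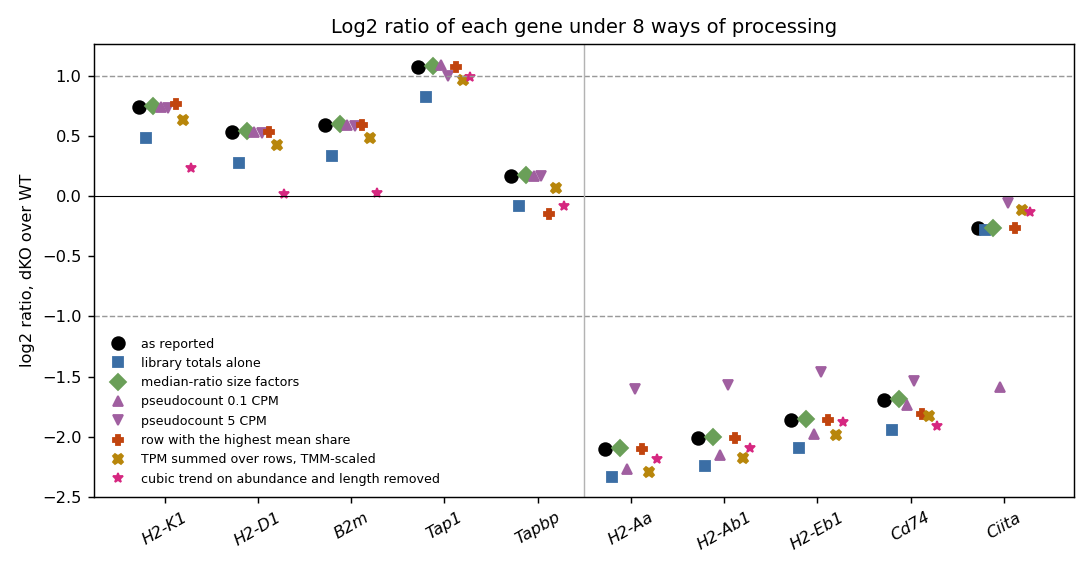
Log2 ratio of dKO over WT of the 10 genes as reported and under 7 other ways of scaling, counting or adding a pseudocount. Dashed lines mark a log2 ratio of 1 in size. H2-Aa, H2-Ab1, H2-Eb1 and Cd74 lie between −2.33 and −1.46 under all 8, H2-D1 and B2m come down to 0.01 and 0.02 with the trend removed, and Tapbp lies on both sides of 0.

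Among the class II genes, H2-Aa and H2-Ab1 encode the alpha and beta chain of the I-A molecule. H2-Aa (Entrez 14960, chromosome 17, 34282744 to 34287823) had 223 counts in dKO and 1088 in WT, or 5.57 and 27.2 CPM, 4.88-fold lower in dKO (4.22 to 5.66). H2-Ab1 (Entrez 14961, chromosome 17, 34263227 to 34269418) had 260 counts in dKO and 1169 in WT, or 6.50 and 29.2 CPM, 4.5-fold lower in dKO (3.93 to 5.16). The WT library was the higher one for both chains, by like amounts. Per length they kept close to equal levels within each library, with H2-Aa at 0.957 of H2-Ab1 in dKO and at 1.04 in WT, and their counting intervals overlapped in both.

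H2-Eb1 encodes the beta chain of the I-E molecule, whose alpha chain gene is known to be defective in the C57BL/6 strain (Entrez 14969, chromosome 17, 34305867 to 34316674). It had 287 counts in dKO and 1144 in WT, or 7.17 and 28.6 CPM, 3.99-fold lower in dKO (3.5 to 4.55). Cd74, the invariant chain (Entrez 16149, chromosome 18, 60803849 to 60812652), was the most abundant class II gene in both libraries. It had 864 counts in dKO and 2886 in WT, or 21.6 and 72.1 CPM, 3.34-fold lower in dKO (3.10 to 3.61). Per length, Cd74 stood at 3.08 times H2-Ab1 in dKO and 2.31 times in WT, and the interval of its fold lay below those of H2-Aa and H2-Ab1. It overlapped that of H2-Eb1, and the order of Cd74 and H2-Eb1 turned with a pseudocount of 5 CPM (log2 ratios −1.54 and −1.46) and once the trend was removed (−1.91 and −1.88). None of the 50-base windows of H2-Aa, H2-Ab1, H2-Eb1 and Cd74 occurred in another gene.

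Ciita, the coactivator of class II transcription (Entrez 12265, chromosome 16, 10480014 to 10531064), had 0 counts in dKO and 8 in WT, in 1 of its 5 rows. It was under the count minimum and was not called. WT stood at 0.200 CPM. The upper end of the Poisson interval for 0 counts in dKO was 0.0922 CPM, and the floor of 3 counts was 0.0750 CPM.

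Ranked by level per length (RPKM, which is CPM per kilobase of transcript), the dKO library had B2m (533), H2-D1 (531), H2-K1 (466), Tapbp (57.9), Tap1 (25.1), Cd74 (16.8), H2-Ab1 (5.45), H2-Aa (5.21), H2-Eb1 (4.30) and Ciita, at 0. The WT library had H2-D1 (367), B2m (354), H2-K1 (279), Cd74 (56.6), Tapbp (51.5), H2-Aa (25.4), H2-Ab1 (24.5), H2-Eb1 (17.1), Tap1 (11.7) and Ciita (0.0353). The neighbours B2m and H2-D1 in dKO, and H2-Aa and H2-Ab1 in both, had overlapping counting intervals, as had H2-Aa and H2-Eb1 in dKO. Cd74 stood above Tap1 and Tapbp in WT and below both in dKO, and H2-K1 was 89.4 times the level of H2-Aa in dKO and 11 times in WT. Among measured genes H2-K1 lay at percentile 98.8 in dKO and 98.6 in WT, and H2-Aa at percentile 48.7 in dKO and 83.2 in WT.

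H2-K1, Tap1, Tapbp and Cd74 had 2 transcript rows each. The 2 rows of Cd74 differ by 192 bases, which is the length of an exon that GENCODE M21 gives to the longer of its 2 Cd74 transcripts with a RefSeq match and not to the shorter. This exon encodes the thyroglobulin-type domain of the p41 form of the invariant chain, known as an inhibitor of cathepsins. The longer row took 315 of 864 counts in dKO, or 36.5% (exact binomial interval 33.2 to 39.8), and 864 of 2886 in WT, or 29.9% (28.3 to 31.6). Its share was higher in dKO and the intervals did not overlap.

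The row shares of Tapbp also stood apart, by a wider margin. Its rows are near in length (2750 and 2747 bases), but their sequences were not compared. The longer took 54.3% of the counts in dKO (53.1 to 55.6) and 43.1% in WT (41.8 to 44.4). By row, the ratio of dKO to WT was 1.42 for the longer (3462 and 2443 counts) and 0.903 for the shorter (2911 and 3222 counts). For H2-K1 the longer row took 95.9% in dKO (95.7 to 96.2) and 94.2% in WT (93.8 to 94.5), a small difference whose intervals did not overlap. For Tap1 it took 94.3% in dKO (93.4 to 95.1) and 94.5% in WT (93.2 to 95.6), with overlapping intervals. The rows of H2-K1 differ by 13 bases in length and yet by 23.6 times in counts in dKO and 16.2 times in WT. If they share most of their sequence, a read was not simply counted in every row it touches. The rule that divided reads among rows is not stated, which limits any row share.

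**Figure D3:**
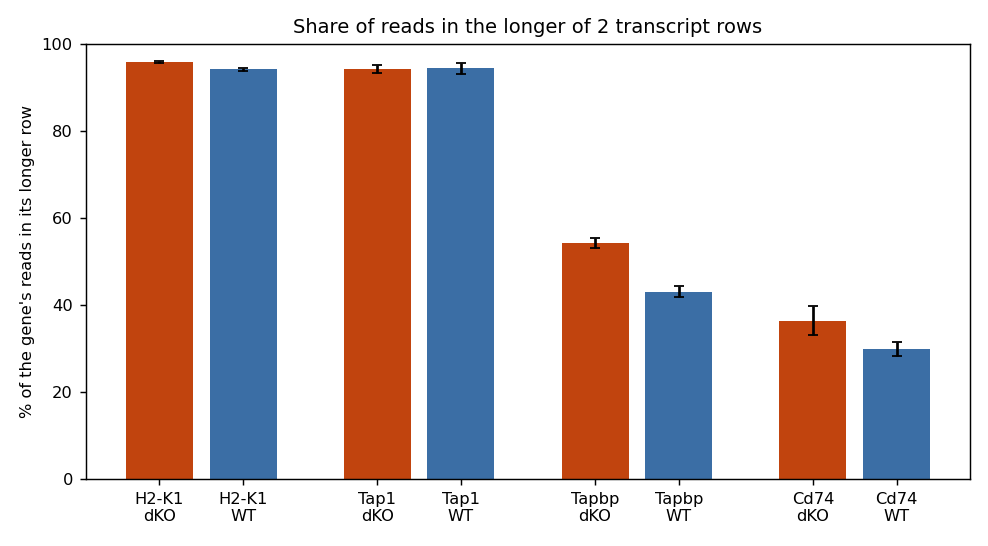
Percentage of a gene's counts that fell in the longer of its 2 transcript rows, in dKO and WT, with bars for 1 library each and 95% exact binomial intervals. The shares of Cd74 (36.5% in dKO, 29.9% in WT) and Tapbp (54.3% in dKO, 43.1% in WT) and, by a smaller margin, H2-K1 (95.9% in dKO, 94.2% in WT) are apart by more than counting error, and those of Tap1 (94.3% in dKO, 94.5% in WT) are not.

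Other steps of the class I pathway, and the lists that follow, were counted in the same way. Over all measured genes 1.92% were 2-fold higher and 4.30% 2-fold lower. Of the 5 immunoproteasome and proteasome activator genes, 0 were 2-fold apart and 4 were above 0, with a median log2 ratio of 0.43 (0.18 under library totals). Psme1 and Psme2, the activator subunits, were 1.47-fold (1.40 to 1.56) and 1.36-fold (1.27 to 1.44) higher in dKO. Psmb8, an interferon-induced catalytic subunit, had 1015 counts in dKO and 707 in WT, 1.44-fold higher (1.30 to 1.58), while Psmb10 had 730 and 733.

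Of 10 peptide loading and trimming genes 1 was higher by 2-fold and 0 were lower, and their median of 0.19 turned to −0.06 by library totals and to −0.02 once the trend was removed. The gene past the line was Hspa5, the main chaperone of the endoplasmic reticulum, with 188252 counts in dKO and 86613 in WT, 2.17-fold higher (2.16 to 2.19). It fell short of the line under library totals (log2 ratio 0.87), by its most counted row (0.84) and with the trend removed (0.65). Calreticulin, Calr, which holds the empty heavy chain, was 1.56-fold higher (1.54 to 1.59) and Pdia3, the disulfide isomerase of the loading complex, 1.31-fold higher (1.28 to 1.34). The peptide trimming enzyme Erap1, chosen with its value known, had a log2 ratio of −0.25.

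Other class I heavy chains and relatives had 18 measured members, 9 above and 9 below 0, and 0 were 2-fold apart. Their median of 0.06 turned to −0.16 under library totals and −0.13 by the most counted row. H2-Q4, an abundant non-classical chain, had 22636 counts in dKO and 12669 in WT, 1.79-fold higher (1.75 to 1.83). H2-T23, which encodes the Qa-1 chain, had 1529 counts in dKO and 2081 in WT, 1.36-fold lower (1.27 to 1.46). Fcgrt, the heavy chain of the neonatal Fc receptor, was 1.20-fold higher (1.16 to 1.24). H2-Q4 held 3.38% of the 50-base windows of H2-K1 and H2-T23 held 4.92% of those of H2-D1, and reads from such stretches may have been divided among genes.

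Genes of class II processing and editing had 1 of 10 measured members lower by 2-fold and 0 higher. Of them 8 lay below 0, for a median of −0.36. The lower one was Ctss, cathepsin S, which trims the invariant chain in antigen-presenting cells. It had 196 counts in dKO and 793 in WT, 4.05-fold lower (3.46 to 4.76). Ctsl, a lysosomal cathepsin of many cell types, had 22582 counts in dKO and 19720 in WT, with a log2 ratio of 0.19, but −0.06 by library totals and −0.16 once the trend was removed. Lgmn, the asparaginyl endopeptidase, was 1.23-fold lower (1.15 to 1.31) and Ifi30, the lysosomal thiol reductase, 1.34-fold lower (1.21 to 1.5).

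The peptide editor H2-DM is made of an alpha and a beta chain, named here after their values were seen. H2-DMa had 251 counts in dKO and 216 in WT, with a ratio of 1.16 (0.965 to 1.40). H2-DMb1 had 41 counts in dKO and 110 in WT, 2.68-fold lower (1.86 to 3.94), with a log2 ratio of −0.89 on the scale with a pseudocount. H2-DMb2, a further beta chain gene, had 2 counts in dKO and 27 in WT, 13.5-fold lower (3.39 to 117), with a log2 ratio of −0.67. The pseudocount kept both beta chain genes under the 2-fold line. The interval of H2-DMa held equal level, and its log2 ratio of 0.18 was −0.03 by library totals.

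**Figure D4:**
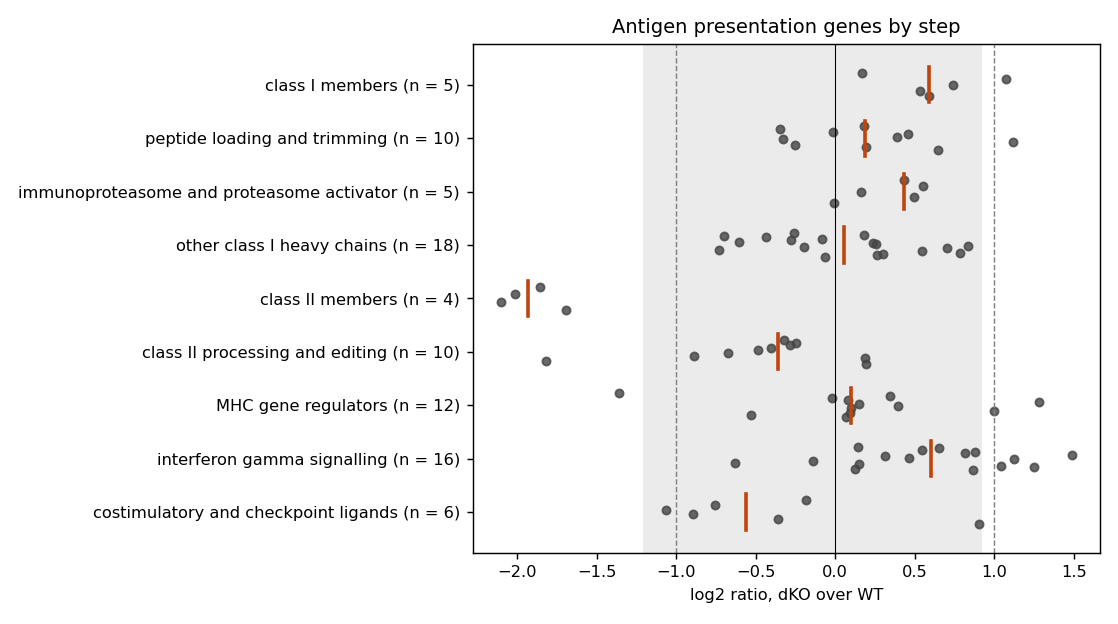
Log2 ratio of dKO over WT of each measured gene, as dots, by step of antigen presentation, with the median of each list as a vertical bar. The grey band holds the middle 95% of all 14885 measured genes, from −1.21 to 0.92, and dashed lines mark a log2 ratio of 1 in size. The class II genes lie left of the band with a median of −1.93 over the 4 measured, and the class I genes have a median of 0.59.

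Among 12 regulators of MHC genes 2 were 2-fold higher and 1 was lower, and their median of 0.10 turned to −0.15 under library totals. Nlrc5, the class I coactivator, had 356 counts in dKO and 123 in WT, or 8.90 and 3.07 CPM, 2.89-fold higher (2.35 to 3.58). Its log2 ratio of 1.28 was 1.07 by library totals and 1.67 once the trend was removed, but 0.78 with a pseudocount of 5 CPM and 0.89 on a TPM scale. Irf8, a transcription factor best known in myeloid and B cells, had 5377 counts in dKO and 2667 in WT, a log2 ratio of 1.0 that fell under the line with library totals (0.75), with a pseudocount of 5 CPM (0.96), on a TPM scale (0.90) and with the trend removed (0.81).

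Spi1, the myeloid factor PU.1, had 16 counts in dKO and 104 in WT, 6.50-fold lower (3.82 to 11.8), and a log2 ratio of −0.49 with a pseudocount of 5 CPM. Irf1, an interferon-induced activator of class I genes, had 8101 counts in dKO and 11711 in WT, 1.45-fold lower (1.41 to 1.49). None of the X and Y box factors was 2-fold apart. Of the CCAAT-binding subunits, Nfya had a ratio of 1.07 (1.03 to 1.12), Nfyb of 1.32 (1.23 to 1.42) and Nfyc of 1.11 (1.04 to 1.18). Of the X box subunits, Rfxap had a ratio of 1.30 (1.13 to 1.48), Rfx5 of 1.06 (1.0 to 1.12) and Rfxank of 0.984 (0.867 to 1.12). All but Nfya were named after their values were seen. So Nlrc5 and Ciita, the related coactivators of class I and class II genes, were in different positions, with Nlrc5 measured and higher in dKO and Ciita under the count minimum in both libraries.

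Interferon gamma is the best-known inducer of both classes. Of 16 measured genes of its signalling and response, 14 were above 0 and the median was 0.60 (0.35 under library totals). By 2-fold 0 were lower (4.30% of all measured genes) and 4 were higher (1.92% of all measured genes). These were the GTPase genes Irgm1 (2.83-fold, 2.71 to 2.96), Gbp2 (2.40-fold, 2.28 to 2.53), Igtp (2.23-fold, 2.07 to 2.41) and Gbp3 (2.16-fold, 1.92 to 2.42). Under library totals Irgm1 stayed past the line (log2 ratio 1.24), while Gbp2 (0.998), Igtp (0.88) and Gbp3 (0.80) did not. Gbp3 was also short of it with a pseudocount of 5 CPM (0.84) and on a TPM scale (0.93).

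The ligand gene Ifng, chosen with its value known, had 0 counts in both libraries. Its receptor chain Ifngr1 had 3275 counts in dKO and 5086 in WT, 1.55-fold lower (1.49 to 1.62), and the receptor kinase Jak1 had 22608 and 12811, 1.76-fold higher (1.73 to 1.80). The receptor chain and the kinase thus stood on opposite sides of equal level.

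Costimulatory and checkpoint ligands go with antigen on a presenting cell. Of 6 measured, 1 was lower by 2-fold and 0 were higher, for a median of −0.56. Cd86, a ligand of CD28, had 5 counts in dKO and 54 in WT, 10.8-fold lower (4.35 to 34.6), with a log2 ratio of −1.06 that became −0.31 with a pseudocount of 5 CPM and −0.80 with the trend removed. Cd274, the checkpoint ligand PD-L1, had 856 counts in dKO and 438 in WT, 1.95-fold higher (1.74 to 2.20). Icosl was 1.72-fold lower (1.59 to 1.85) and Tnfsf9 1.14-fold lower (1.05 to 1.25). Cd40 and Cd80, named after their values were seen, had 0 and 9 counts in dKO against 6 and 23 in WT.

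Macrophage and pan-leukocyte markers were lower in the dKO library as well, and dendritic and B cell markers were mixed or few. Over all measured genes 4.30% were 2-fold lower. All 15 macrophage and monocyte markers were below 0 and 11 were 2-fold lower, with a summed level of 66.2 CPM (63.7 to 68.8) in dKO and 213 CPM (209 to 218) in WT, 3.22-fold lower. Among them C1qb had 62 and 676 counts, Itgam 19 and 369 and Lyz2 1239 and 3001. Fcgr1 and Cx3cr1 were at 0 in dKO (26 and 42 counts in WT), and no marker of this list was at 0 in WT. All 10 pan-leukocyte markers were below 0 and 8 were 2-fold lower, with sums of 7.6 CPM (6.77 to 8.50) in dKO and 46.2 CPM (44.1 to 48.4) in WT, 6.08-fold lower, and with none at 0. Ptprc, which encodes CD45, had 17 counts in dKO and 200 in WT.

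Of 11 dendritic cell markers 8 were measured, of which 6 were below 0 and 1, Clec10a (61 and 181 counts), was 2-fold lower. Their sum was 102 CPM (98.9 to 105) in dKO and 117 CPM (113 to 120) in WT, most of it Sirpa (3370 and 3953 counts), which many cell types express. Zbtb46, a transcription factor of classical dendritic cells, had 623 counts in dKO and 384 in WT, 1.62-fold higher (1.43 to 1.85), and Batf3 had 14 and 11. The markers Flt3, Clec9a and Cd209a had 0 counts in dKO and 20, 19 and 38 in WT, Siglech 0 and 7, and Xcr1 and Ccr7 were at 0 in both. B cell markers summed to 7.32 CPM (6.51 to 8.21) in dKO and 8.47 CPM (7.6 to 9.43) in WT, of which Cd79a made up 278 of 293 and 304 of 339 counts. The B cell genes Ms4a1 and Pax5 were at 0 in both libraries and Blk was at 0 in dKO (9 counts in WT). T and NK cell markers had 16 counts in dKO and 25 in WT over 9 genes, of which 7 were at 0 in dKO and 6 in WT.

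Endothelial and fibro-adipogenic progenitor cells, which the sort was also set to exclude, differed in the same direction. Of 15 endothelial markers all were below 0 and 12 were 2-fold lower, with sums of 393 CPM (387 to 400) in dKO and 892 CPM (883 to 902) in WT. Of 10 fibro-adipogenic markers 9 were below 0 and 6 were 2-fold lower, with sums of 3242 CPM (3224 to 3260) in dKO and 4450 CPM (4430 to 4471) in WT. Of these sums Gsn, with a log2 ratio of −0.19, made up 2341 and 2679 CPM. No gene of either list was at 0. Ly6a, which encodes Sca1, was 6.00-fold lower in dKO (5.39 to 6.70) and Pecam1, which encodes CD31, 2.84-fold lower (2.68 to 3.00), while Vcam1 was 1.78-fold higher (1.75 to 1.81).

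H2-Aa, H2-Ab1, H2-Eb1 and Cd74 together had 1634 counts in dKO and 6287 in WT, 3.85-fold lower (3.64 to 4.07). Per summed macrophage and monocyte marker CPM, their sum stood at 0.617 in dKO and 0.736 in WT, and per pan-leukocyte marker CPM at 5.38 in dKO and 3.40 in WT. Per dendritic cell marker CPM it stood at 0.400 in dKO and 1.35 in WT, and per B cell marker CPM at 5.58 in dKO and 18.5 in WT. By these sums the class II difference (3.85-fold) was larger than that of the macrophage list (3.22-fold) and smaller than that of the pan-leukocyte list (6.08-fold). It was also larger than those of the dendritic and B cell sums. As those are mostly Sirpa and Cd79a, they do not speak for the other markers of their lists. In the macrophage sum, Lyz2 made up 1239 of 2649 counts in dKO and 3001 of 8538 in WT, and it was 2.42-fold lower. The order of the class II and macrophage folds, and the ratio of their sums, thus depend on Lyz2. The part of these cells in the class II result was not tested, and in bulk RNA fewer cells of a type and less RNA per cell cannot be told apart. Class I genes stood on the other side from these markers, with a summed level of 2378 CPM in dKO and 1576 CPM in WT.

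**Figure D5:**
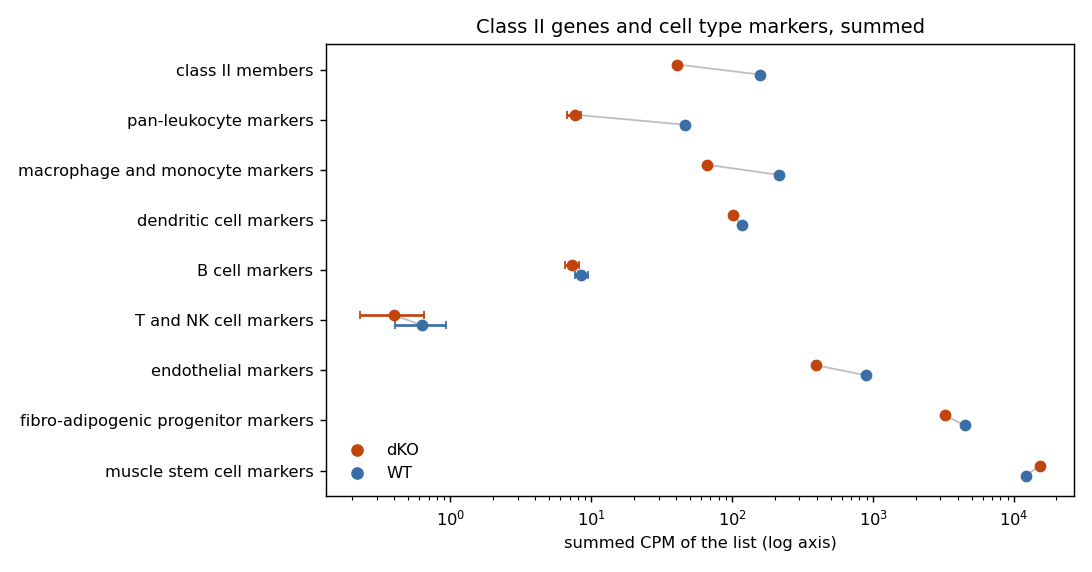
Summed CPM (log axis) of the class II genes and of marker lists of cell types in the dKO library and the WT library, with points for 1 library each and bars for 95% Poisson intervals. The class II sum (40.8 CPM in dKO, 157 in WT) and the macrophage (66.2 and 213) and pan-leukocyte (7.6 and 46.2) sums are lower in dKO. The dendritic and B cell sums differ less. The muscle stem cell sum is higher with TMM scaling, and Sdc4 makes up 4872 CPM of it in dKO and 2980 CPM in WT.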

How the data were processed

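RNA-seq counts of 1 dKO and 1 WT library of sorted muscle stem cells were analysed. The table the authors deposited holds whole-number read counts in 36780 rows, 1 per transcript, beside its length and Entrez ID. The submitters' processing notes name TopHat2 2.0.9, bedtools, edgeR and mm10, with no role or order. For the counting rule, annotation, read length and strand setting, none is given in the sources used here.

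Symbols came from RefSeq on GRCm38 (24462 of 24532 IDs matched). Rows of a gene were summed, and library sizes were scaled by TMM in edgeR 4.0.16 (R 4.3.3), with factors of 0.916 for dKO and 1.09 for WT. RPKM is CPM per kilobase, computed per row and summed. Poisson and Clopper-Pearson intervals and the floor of 3 counts cover counting error only: reads copied by PCR are no independent molecules. The steps were tested on simulated counts. Transcript windows of 50 and 100 bases came from GENCODE M21.

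With 1 library per group no test was made. The members and 17 gene lists were chosen with earlier results of these data known. Of each list, up to 6 measured genes past 2-fold and the 3 highest per length could be named. Some markers that this rule allows are counted only. Members of a list named outside the rule were chosen after their values were seen. Of the listed names, 3 had no row. Alternatives were other scalings, pseudocounts, count minimums, fold rules, the most counted row, a TPM scale and removal of a cubic trend on abundance and length.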

Additional observations from a re-analysis of the deposited data

How the results depend on the processing

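H2-Aa, H2-Ab1, H2-Eb1 and Cd74 kept their direction and stayed past 2-fold under all 7 other ways of scaling, counting or adding a pseudocount. The class II median was −1.54 with a pseudocount of 5 CPM, and −1.93 over the 4 measured members, a choice made after seeing the data. The class I median was 0.33 under library totals, 0.48 on a TPM scale and 0.025 with the trend on abundance and length removed. Tap1 was the 1 member 2-fold higher, and 0 were under library totals, a pseudocount of 5 CPM, a TPM scale, the trend removal or a 4-fold rule, against 3 by a 1.5-fold rule. By a 4-fold rule 2 members were lower. Over all measured genes, the count of higher genes was 130 under library totals, 698 and 154 with pseudocounts of 0.1 and 5 CPM, 467 by the most counted row, and 1336 and 25 by the 1.5-fold and 4-fold rules. The count of lower genes was 1040 under library totals, 1653 and 187 with those pseudocounts, 1955 and 56 by those fold rules, and 418 with the trend removed. The cause of these shifts was not tested, beyond the rules' own construction. No paired analysis was possible because each group has 1 library, and no replicate could be left out. Depth limits Ciita, which was under the count minimum in both libraries.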
